A study of Mus musculus with 93 samples.

Results

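Creb3l2, Lhx6, Leo1, Insig2, Atp2a2, Slc25a22, Slc17a1, Car14, Tacc2 and Tmem263 are 10 genes selected on RNA levels in mouse liver at 10 months. The rule of choice was a lower level along the CAG length of the Htt allele or in mice with long repeats. They are 10 of 39179 genes measured, and all 10 were among the 16126 that passed a filter on low counts. Levels in the heterozygous mice of 10 months chose them, so differences among those mice are described here without a test. Tests are given for mice of 6 months and for wild-type mice, which the rule of choice does not name.

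All livers were from C57BL/6 mice, and each heterozygote had a knock-in CAG repeat in a single allele of Htt, the huntingtin gene, whose long repeats cause Huntington's disease. Heterozygotes had the allele Q20, Q50, Q92 or Q140, named for CAG lengths of 20, 50, 92 and 140, and no treatment is labelled. Q20 and Q50 heterozygotes and their wild types are labelled as sharing housing, while Q92 and Q140 heterozygotes are labelled as housed with their own genotype. No wild types of Q92 or Q140 housing were analysed here, so for these alleles genotype and housing cannot be told apart. The 93 libraries fell into 24 groups by genotype or wild-type housing, by sex and by age, 6 or 10 months. Groups held 4 libraries, apart from the males of 10 months with Q20, Q92 or Q140, which held 3. No label states that the numbered libraries of a group are from different mice, so a p-value reflects library-to-library spread, which may be technical. Levels are in CPM, that is, counts per 1000000 of the TMM-scaled library size. Log2 differences are given ± standard error. P-values are those of the quasi-likelihood F-test in edgeR, adjusted by the Benjamini-Hochberg method over the 16126 genes, and a gene is called under 0.05. Whole liver was sequenced, so fewer cells of a type and less RNA per cell cannot be told apart.

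The 10 genes belong to different processes. Creb3l2 encodes a transcription factor of the CREB3 family that is held in the membrane of the endoplasmic reticulum (ER) until it is cut free, and its targets include parts of the secretory pathway. Insig2 encodes an ER membrane protein that retains the SCAP and SREBP complex and so restrains the genes of cholesterol and fatty acid synthesis, and its RNA is known to vary over the day in mouse liver. Atp2a2 encodes SERCA2, the pump that moves calcium from the cytosol into the ER. Leo1 encodes a subunit of the PAF1 complex, which travels with RNA polymerase II, and Lhx6 a LIM homeobox factor best known from interneurons of the forebrain. Slc25a22 encodes a mitochondrial glutamate carrier, Slc17a1 an anion transporter that carries phosphate and urate, and Car14 a carbonic anhydrase of the cell surface. Tacc2 encodes a coiled-coil protein of the centrosome, and Tmem263 a small membrane protein.

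The libraries held 28752184 to 46776898 counts each, with a median of 36089384. Transcripts of the mitochondrial genome took 7.6% to 26.8% of them. Xist and Ddx3y matched the labelled sex in every library, and the 6 hepatocyte markers (Alb, Apoa1, Ttr, Cps1, Cyp3a11, Hnf4a) summed to 62667 to 128737 CPM. 5 libraries stood apart. Replicate 1 of the Q140 females at 10 months and replicate 4 of the Q140 males at 6 months did so for brain transcripts. These had 123 and 43.9 CPM, against medians of 22.2 and 13.01 CPM in their sex. Replicate 1 of the Q92 males at 6 months and of the Q20-housed wild-type males at 10 months had mitochondrial shares of 15.5% and 26.8%. Replicate 1 of the Q50 females at 6 months had 2.70 CPM of Abhd1, which was above 5 CPM in the other heterozygous libraries. Among these 5, the other heterozygous libraries had 20.2 to 21.6 CPM of Abhd1 and the wild type 3.57 CPM. The genotype label of that Q50 library may therefore be in doubt, and it was not checked further. 16 libraries, 11 of them at 10 months, carry no sequencing index in their label, among them 3 of the 4 wild-type females of 10 months housed with Q50. Htt, the targeted gene, had a fitted change of -0.49 ± 0.10 on the log2 scale from Q20 to Q140 at 10 months.

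The genes lie on 9 chromosomes. Atp2a2, the 1 member on the chromosome of Htt (chromosome 5), is 87.5 Mb from it in GRCm38 at chr5:122453513-122502225. Levels between genes are compared per length, as mean FPKM over the 93 libraries. Slc25a22 and Insig2 were the most abundant at 73.3 and 68.9 FPKM, followed by Atp2a2 at 41.8 and Car14 at 20.2 FPKM. Slc17a1, Leo1, Creb3l2, Tacc2 and Tmem263 had 7.50, 4.55, 4.30, 3.77 and 2.07 FPKM. Lhx6 was the least abundant at 0.896 FPKM, with 23 to 240 counts per library, so its values carry the most counting error. 6 of the 10 overlap another annotated gene, with a protein-coding partner for Car14 (Aph1a), Tmem263 (Mterf2) and Tacc2 (Fgfr2), and with the strand setting of the counting not given in the sources used here, shared reads cannot be told apart from their own.

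Promoters are shown for the 4 genes with the largest fitted fall at 10 months, since genes that move together may be compared for shared sequence there. RefSeq (GRCm38.p6) gave 17 promoters for 9 of the 10 genes. Each sequence runs 5′ to 3′ on the gene's strand, from 250 bases before to 50 bases after an annotated start, with matches to CCAAT (or ATTGG on the other strand) in capitals. They lie at chr2:36105359-36105658 on the minus strand (Lhx6), chr6:37442099-37442398 on the minus strand (Creb3l2), chr1:121332540-121332839 on the minus strand (Insig2) and chr7:130577188-130577487 on the plus strand (Tacc2).
Lhx6: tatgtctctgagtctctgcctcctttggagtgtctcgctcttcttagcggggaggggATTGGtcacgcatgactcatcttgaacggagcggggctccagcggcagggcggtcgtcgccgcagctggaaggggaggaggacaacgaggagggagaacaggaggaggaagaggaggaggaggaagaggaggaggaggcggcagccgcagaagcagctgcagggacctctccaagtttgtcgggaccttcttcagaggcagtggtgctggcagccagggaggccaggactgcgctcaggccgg
Creb3l2: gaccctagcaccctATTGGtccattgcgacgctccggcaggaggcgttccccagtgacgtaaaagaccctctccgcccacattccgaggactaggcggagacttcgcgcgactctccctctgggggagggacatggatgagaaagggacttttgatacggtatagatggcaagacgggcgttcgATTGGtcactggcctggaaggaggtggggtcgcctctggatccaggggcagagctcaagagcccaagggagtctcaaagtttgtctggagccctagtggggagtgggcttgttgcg
Insig2: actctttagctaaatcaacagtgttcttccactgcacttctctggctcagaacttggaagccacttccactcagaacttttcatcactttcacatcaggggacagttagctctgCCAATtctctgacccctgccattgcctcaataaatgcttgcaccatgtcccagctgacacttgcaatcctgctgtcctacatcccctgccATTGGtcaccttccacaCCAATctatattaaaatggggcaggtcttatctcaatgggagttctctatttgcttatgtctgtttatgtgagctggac
Tacc2: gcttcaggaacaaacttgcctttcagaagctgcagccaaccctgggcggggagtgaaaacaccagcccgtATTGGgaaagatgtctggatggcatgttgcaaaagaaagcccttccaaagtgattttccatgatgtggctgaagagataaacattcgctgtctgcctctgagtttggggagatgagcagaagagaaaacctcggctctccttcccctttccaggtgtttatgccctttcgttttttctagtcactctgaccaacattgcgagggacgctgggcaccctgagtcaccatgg
Each is that of the first listed start of its gene, and all 4 hold CCAAT on a strand, with 3 matches for Insig2, 2 for Creb3l2 and 1 each for Lhx6 and Tacc2. The other starts of Insig2 (2) and Tacc2 (1) and the second start of Lhx6 have no match, and the third of Lhx6 has 1. Over all starts of the 10 genes, 7 of 17 promoters of 6 genes hold it, against 37.4% of 32851 promoters of this length. The E-box CACGTG, bound by clock factors, was in none of the 17 promoters and in 7.15% of all. The sterol regulatory element TCACNCCAC was in none of the 17 and in 1.24% of all, and the cyclic AMP response element TGACGTCA in none of the 17 and in 1.79% of all. The D-box TTATGNAA was found in 1 promoter, that of Slc17a1, and in 3.38% of all. ACGTG, the core that CACGTG contains, was in the promoters of Car14 and Leo1 and in 19.6% of all. The glucocorticoid response element was in that of Car14 (0.475% of all), TATAAA in 1 of Lhx6 (13.6% of all) and the HNF1 site in none. Each motif was searched on both strands. A missing match says only that these letters are not in this window.

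The 10-month levels are described first by sex, since the fitted changes along CAG length were larger in females for each of the 10 genes; the difference between the sexes at 10 months was not tested. All 10 genes were higher in each of the 4 Q20 females than in each of the 8 Q92 and Q140 females, as were 3.63% of the 16126 genes. In males the 3 Q20 libraries were above all 6 Q92 and Q140 libraries for 2 of the 10 genes, Slc17a1 and Lhx6 (2.69% of all genes). The choice of the genes used these libraries, so nothing is read from these counts, and whether a step or a slope along CAG length describes the levels better was not tested. Fitted from CAG length 20 to 140, the change in females lay between -1.36 (Insig2) and -0.57 (Slc17a1) on the log2 scale. In males it lay between -0.76 (Lhx6) and 0.16 (Leo1). The average of the sexes ran from -0.97 (Lhx6) to -0.42 (Tmem263). Lhx6 and Tacc2 were outside the threshold of that fit, and both were inside for Q140 against Q20. These libraries chose the genes, so no p is given for them here. Of all genes, 0.329% were inside along CAG length (0.0868% lower). 8 of the 10 were inside, as they were for Q92 against Q20 (0.980% of all genes lower), and all 10 for Q140 against Q20 (0.198% lower); these counts follow from the choice. Without the 5 libraries that stood apart the female changes lay between -1.31 and -0.57, and without the libraries lacking an index between -1.07 and -0.39. A further fit had lane as a covariate. Lane is inferred from the L number in each library's label, taken separately at each age. Libraries lacking an index formed a level of their own at each age, so this fit also adjusts for the missing index. With lane as a covariate none of the 10 was inside the threshold with the sexes averaged, and 6 were in females.

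**Figure D1:**
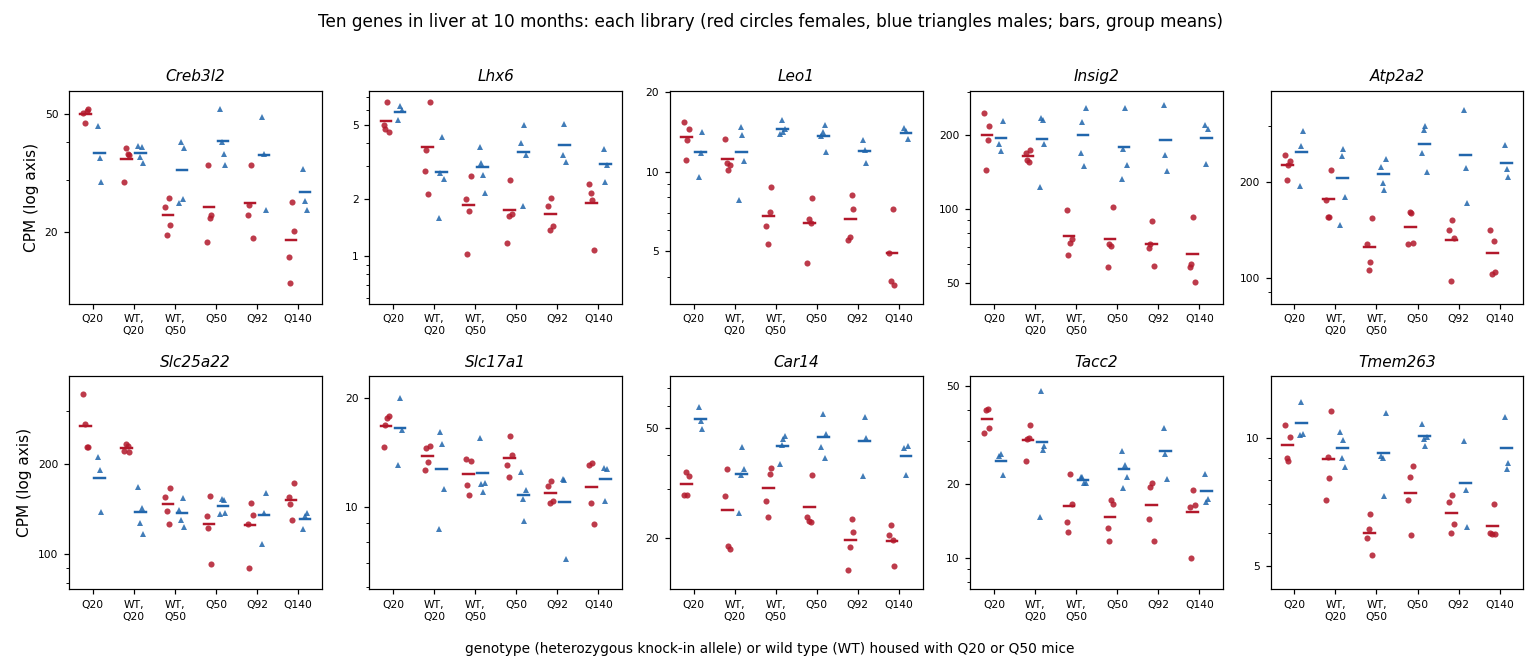
CPM (log axis) of the 10 genes in each liver library at 10 months, by genotype or wild-type housing. Red circles are females, blue triangles males, and bars group means. For Insig2 and Leo1 the females of Q20 and of Q20-housed wild types stand level with the males, and the females of the other 4 groups stand below every Q20-housed female.

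Insig2 gave a step with no overlap. The 4 Q20 females had 246, 144, 191 and 218 CPM, and the wild-type females housed with them 169.9, 159, 156 and 174 CPM. Wild-type females housed with Q50 had 98.8, 64.9, 72.6 and 75.4 CPM. Q50 females had 58.1, 72.2, 70.8 and 102 CPM, Q92 females 69.8, 71.8, 89.5 and 58.6 CPM, and Q140 females 58.3, 59.6, 92.9 and 50.6 CPM. Every female of the Q20 housing, heterozygous or wild type, was therefore above every other female, and the 4 lower groups overlapped throughout. The 21 males of 10 months ran from 123 to 264 CPM with a median of 184 CPM, and their 6 group means lay between 179.5 (Q50) and 201 CPM (wild types housed with Q50). The fitted difference of Q50 from Q20 females was -1.40 ± 0.23, and of Q140 from Q50 females -0.21 ± 0.22.

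Leo1 divided the females the same way at a lower level. Q20 females had 15.4, 11.04, 13.2 and 14.6 CPM and their wild types 13.3, 10.8, 10.2 and 10.6 CPM, while the other 16 females ran from 3.73 to 8.74 CPM (median 6.33). Lowest on average among these were Q140 females, with 4.93, 3.85, 7.21 and 3.73 CPM. Males of 10 months ran from 7.84 to 15.7 CPM, and the means of Q20 and Q140 males were 11.8 ± 2.31 (SD, n = 3) and 14.1 ± 0.675 CPM (n = 3). Q50 differed from Q20 females by -1.09 ± 0.18.

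Creb3l2 was highest in Q20 females, and here the heterozygotes stood above their own wild types. Q20 females had 50.1, 46.4, 51.1 and 51.9 CPM and the wild-type females housed with them 29.6, 38.4, 36.5 and 36.4 CPM, with no overlap. The other 16 females ran from 13.5 to 33.5 CPM (median 22.5), and Q140 females were lowest on average with 16.4, 13.5, 25.3 and 20.2 CPM. Males overlapped across all groups between 23.7 and 51.9 CPM, with means of 36.8 ± 7.97 in Q20 (n = 3), 40.5 ± 8.05 in Q50 (n = 4), 36.4 ± 12.5 in Q92 (n = 3) and 27.2 ± 4.65 CPM in Q140 males (n = 3). The fitted change along CAG length was -1.18 ± 0.23 in females and -0.47 ± 0.26 in males.

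Lhx6, at a few CPM, was the gene in which Q20 mice of both sexes stood out. Q20 females had 4.999, 4.73, 6.58 and 4.57 CPM, and their wild types 2.84, 3.67, 2.14 and 6.61 CPM. The other 16 females ran from 1.03 to 2.67 CPM. The 3 Q20 males had 5.28, 6.30 and 5.96 CPM, and the other 18 males 1.596 to 5.04 CPM, Q20-housed wild types included. No Q20 library overlapped a library of another genotype of its sex except the highest Q20-housed wild-type female.

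For Atp2a2 the calcium pump, Q20 females had 243, 204, 226 and 233 CPM, their wild types 176, 156, 156 and 219 CPM, and the other 16 females 97.5 to 162 CPM (median 129.8). Male groups overlapped between 146 and 338 CPM. Slc25a22, the glutamate carrier, had 341, 272, 228 and 228 CPM in Q20 females and 220.4, 232, 229.5 and 219 CPM in their wild types. The other 16 females ran from 89.7 to 173 CPM, without overlap, and the highest mean among them was that of Q140 females, at 151 ± 17.7 CPM (n = 4). In Q20 males it was 209.7, 190.2 and 138 CPM, and the other 18 males had 108 to 167 CPM. The fitted difference of Q50 from Q20 females was -1.08 ± 0.18 for Slc25a22 and -0.65 ± 0.16 for Atp2a2.

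Car14 and Slc17a1 came closest to a graded pattern in females. For Car14 the Q20 females had 28.4, 34.5, 28.6 and 33.4 CPM, the Q50 females 23.8, 23.0, 22.7 and 33.9 CPM, the Q92 females 15.3, 18.4, 23.4 and 21.0 CPM and the Q140 females 20.4, 22.2, 19.6 and 15.8 CPM. Q50 overlapped both its neighbours, and Q92 and Q140 had equal means (19.5 ± 3.46 and 19.5 ± 2.68 CPM, n = 4 each). Its wild types did not follow the step: those housed with Q50 had 27.2, 23.7, 34.1 and 35.8 CPM and those housed with Q20 had 28.3, 35.6, 18.6 and 18.3 CPM. For Slc17a1 the means were 16.8 ± 1.49 in Q20, 13.7 ± 1.52 in Q50, 10.96 ± 0.787 in Q92 and 11.4 ± 2.11 CPM in Q140 females (n = 4 each). The 3 Q20 males had 13.1, 20.1 and 16.4 CPM, above the 7.19 to 12.8 CPM of the 6 Q92 and Q140 males. The difference of Q50 from Q20 females was -0.27 ± 0.17 for Car14 and -0.29 ± 0.16 for Slc17a1, and from Q50 to Q140 females Car14 gave a further -0.40 ± 0.17.

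Tacc2 again showed the step, with 32.4, 40.1, 40.6 and 33.9 CPM in Q20 females, 24.9, 30.5, 30.7 and 34.9 CPM in their wild types and 10.0 to 22.0 CPM in the other 16 females. Tmem263 had 10.7, 8.99, 8.86 and 10.1 CPM in Q20 females, 7.15, 9.04, 8.06 and 11.6 CPM in their wild types and 5.31 to 8.60 CPM in the other 16, so that only the wild types overlapped the lower groups. Males of all groups overlapped for both genes, between 14.7 and 47.8 CPM for Tacc2 and between 6.18 and 12.2 CPM for Tmem263.

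**Figure D2:**
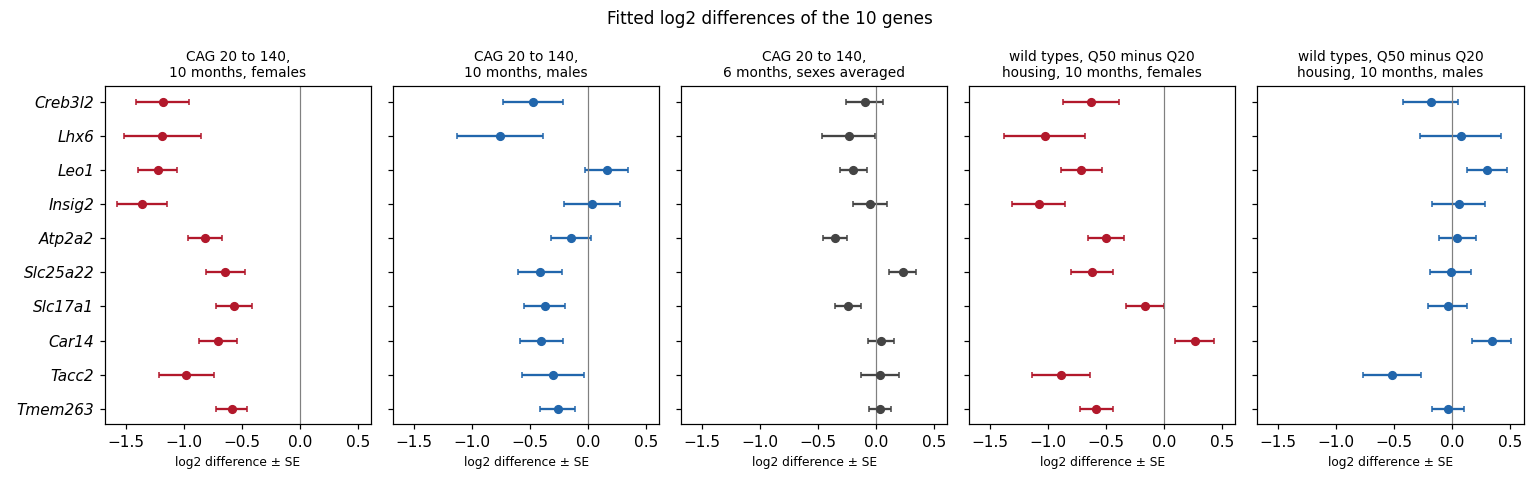
Fitted log2 differences of the 10 genes with standard errors: the change from CAG length 20 to 140 at 10 months in females and in males, the same change at 6 months, and wild types housed with Q50 minus those housed with Q20 at 10 months in females and in males. In females at 10 months the change along CAG length is negative for all 10 genes and the housing difference for 9, and the median change along CAG length over the 10 genes is -0.90 in females and -0.34 in males at 10 months and -0.08 at 6 months.

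At 6 months, in libraries that the choice did not use, none of the 10 genes passed the test along CAG length. By the same test 0.0248% of all genes passed, 4 in number, and 2 of the 10 genes had an unadjusted p under 0.05 against 11.5% of all genes. Their fitted changes had a median of -0.08, with 6 below 0 and 4 above, against a median of 0.00 over all genes. None passed for Q92 (0.00620% of all genes) or Q140 (0.0558%, of which 0.0434% higher) against Q20, nor for Q20, Q50 or Q92 against wild types (0.00620%, 0.00620% and 0.0248%). DESeq2 called 52 genes along CAG length at 6 months, none of them among the 10. For none of the 10 genes were the Q20 females all above the Q92 and Q140 females (1.22% of all genes), nor the Q20 males all above the Q92 and Q140 males (0.167%). The sex difference of the 6-month trend was past the threshold for no gene tested (edgeR), 863 genes having an unadjusted p under 0.05, and DESeq2 called none of the 10 either.

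Atp2a2 came nearest at 6 months. Q20 females had 192, 186, 174 and 141 CPM, Q50 females 164, 149.9, 137 and 158 CPM, Q92 females 137, 138, 147 and 148 CPM, and Q140 females 121, 143, 144 and 99.6 CPM. Q20 males had 203, 210.4, 196 and 219 CPM and Q140 males 202, 148, 205 and 162 CPM, so the end groups overlapped in each sex. The change from 20 to 140 was -0.35 ± 0.11 (unadjusted p = 0.0012, adjusted p = 0.13, edgeR). Against all wild types of 6 months together, Q140 mice had less Atp2a2 by the test (-0.37 ± 0.10, adjusted p = 0.026, edgeR), the 1 member among the 395 genes called (2.45%, 1.38% higher and 1.07% lower). This call was lost when any 1 of 4 Q140 libraries was left out (females 1 and 4, males 2 and 4), the last being a library with brain transcripts (adjusted p = 0.058 to 0.112, edgeR), and with lane as a covariate (0.162).

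Slc25a22 leaned the opposite way, with a change of 0.23 ± 0.12 along CAG length (adjusted p = 0.44, edgeR). Insig2 in Q92 against Q20 mice differed by 0.48 ± 0.16 (unadjusted p = 0.0035, adjusted p = 0.37, edgeR). Its Q92 females had 65.2, 111, 89.3 and 139.8 CPM, its Q20 females 78.9, 57.0, 71.1 and 48.4 CPM and its Q140 females 60.6, 61.7, 60.9 and 63.1 CPM. All 24 females of 6 months, between 48.4 and 139.8 CPM of Insig2, were below the 4 Q20 females of 10 months. Leo1 in females of 6 months ran from 4.97 to 10.4 CPM, below each of the 4 Q20 females of 10 months too, while Creb3l2 ran from 17.6 to 42.4 CPM. Slc17a1 had a change of -0.24 ± 0.11 (unadjusted p = 0.030, adjusted p = 0.37, edgeR). With the sexes together its means at 6 months were 11.4 in Q20, 11.2 in Q50, 10.8 in Q92 and 9.62 CPM in Q140 mice, and those of Lhx6 were 3.03, 2.96, 2.80 and 2.48 CPM in the same order (n = 8 each), with overlapping ranges.

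**Figure D3:**
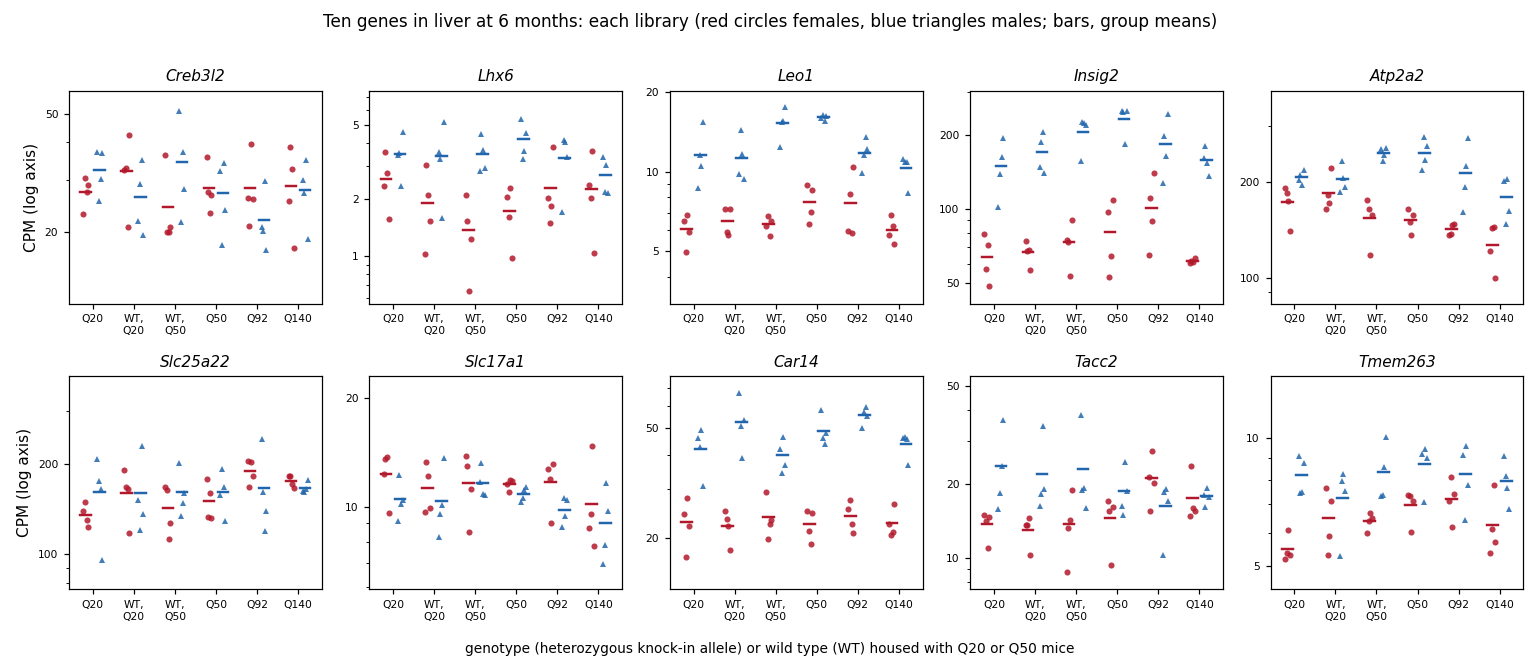
CPM (log axis) of the 10 genes in each liver library at 6 months, drawn as for 10 months. Red circles are females, blue triangles males, and bars group means. Q20 females lie among the other females for Insig2 and Leo1, and males are above females for Insig2, Leo1 and Car14 in the group means of every genotype.

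The step was also seen between wild-type females, which carry no knock-in allele. At 10 months, wild-type females housed with Q50 had less Insig2 (-1.08 ± 0.23, adjusted p = 0.0095), Leo1 (-0.71 ± 0.17, adjusted p = 0.027) and Tmem263 (-0.58 ± 0.14, adjusted p = 0.024) than those housed with Q20 (edgeR). These were 3 of the 10 genes, against 0.967% of all genes, and 8 of the 10 had an unadjusted p under 0.05 against 10.9% of all genes. Tacc2 (-0.89 ± 0.25, adjusted p = 0.059), Slc25a22 (-0.62 ± 0.18, adjusted p = 0.064), Atp2a2 (-0.50 ± 0.16), Creb3l2 (-0.63 ± 0.24) and Lhx6 (-1.03 ± 0.35, adjusted p = 0.15) did not pass with edgeR, nor did Slc17a1 (-0.16 ± 0.17) or Car14 (0.26 ± 0.17). DESeq2 passed Tacc2 and Slc25a22 too (adjusted p = 0.0364 and 0.0455), and so did the fit without the 5 libraries that stood apart (0.032 and 0.0365, edgeR). 7 of the 10 genes were higher in all 4 Q20-housed than in all 4 Q50-housed wild-type females, the exceptions being Car14, Slc17a1 and Lhx6, against 3.35% of all genes. This comparison by sex was chosen after seeing the data.

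The Insig2 call was lost without replicate 2 of the Q50-housed females (adjusted p = 0.0828, edgeR). With lane as a covariate the Insig2 call was kept, and those of Leo1 (adjusted p = 0.0755) and Tmem263 (0.137) were lost (edgeR). The Leo1 call was lost without replicate 1 or 3 of the Q20-housed or replicate 1, 2 or 3 of the Q50-housed females (0.0516 to 0.199, edgeR), and that of Tmem263 without replicate 3 or 4 of the Q20-housed or 1, 2 or 4 of the Q50-housed females (0.0506 to 0.169, edgeR). With 3 of the 4 Q50-housed and 1 of the 4 Q20-housed females carrying no index in their label, the comparison without such libraries left 1 Q50-housed female, assumed to vary like the other groups. Its differences were then -1.19 for Insig2, -0.69 for Leo1 and -0.43 for Tmem263 (adjusted p = 0.235, 0.402 and 0.617, edgeR). The lane covariate also carries a level for libraries lacking an index, so it and the fit without such libraries are not separate checks. The part of the missing index in the step was not tested further.

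In wild-type males of 10 months none of the 10 genes passed between the housings (1.31% of all genes did), and the median difference over the 10 was 0.01. Leo1 differed by 0.30 ± 0.17 and Insig2 by 0.05 ± 0.22. The difference between the sexes, males minus females, was 1.01 ± 0.25 for Leo1 (adjusted p = 0.095, edgeR) and 1.13 ± 0.32 for Insig2 (adjusted p = 0.17, edgeR), neither past the threshold that 0.00620% of all genes passed. DESeq2 and the fit on log2(FPKM + 1) did pass Leo1 here (adjusted p = 0.0474 and 0.0458). With the sexes averaged, Tacc2 was the 1 member called between the housings at 10 months (-0.70 ± 0.18, adjusted p = 0.020, edgeR, 1.90% of all genes, 1.09% higher), a call lost without replicate 2 of the Q20-housed males, which had 47.8 CPM, or without replicate 2 of the Q50-housed females (0.0772 and 0.0602, edgeR). It was also lost with lane as a covariate (adjusted p = 0.141, edgeR) and without the libraries lacking an index (-0.49, adjusted p = 0.367, edgeR). At 6 months none of the 10 passed between the housings (0.0186% of all genes).

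Placed beside heterozygous mice, wild-type females of the Q20 housing were above every Q92 and Q140 female for 5 of the 10 genes, Insig2, Slc25a22, Atp2a2, Leo1 and Tacc2, against 1.11% of all genes. Since the levels of Q92 and Q140 females chose the genes, this count is a description. Against wild types of both housings together at 10 months the same mice differed less: the median change over the 10 genes was -0.17 for Q92 and -0.21 for Q140, compared with -0.51 and -0.62 against Q20. None of the 10 passed against wild types, where 0.0372% of all genes passed for Q92, each of them higher, and 0.0186% for Q140. Since Q92 and Q140 levels chose the genes, this too is a description and not a test. The rule of choice compared heterozygotes and does not name wild types, so a larger difference from Q20 may follow from the choice. The comparisons share the Q92 and Q140 libraries, and no p is given for the 10 genes. Q20 mice against their own wild types had a median of 0.28, and Car14 (0.49 ± 0.12) and Lhx6 (0.75 ± 0.25) differed most.

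Several of the genes differed by age and by sex in wild types. The library numbers in the labels form a separate series at each age, so age and this split cannot be told apart. Males had more Insig2 (1.11 ± 0.11), Leo1 (0.81 ± 0.09), Car14 (0.74 ± 0.09), Lhx6 (0.59 ± 0.17), Atp2a2 (0.45 ± 0.08), Tacc2 (0.45 ± 0.12) and Tmem263 (0.31 ± 0.07), which were 7 of the 10 genes against 44.0% of all genes (21.9% higher in males), each called by edgeR. Without the libraries lacking an index Tacc2 had 0.27 (adjusted p = 0.174, edgeR). Creb3l2 (0.20 ± 0.12), Slc25a22 (-0.16 ± 0.09) and Slc17a1 (-0.06 ± 0.08) did not pass, though Slc25a22 and Slc17a1 were called lower in males on the log2(FPKM + 0.1) scale (-0.35 and -0.21, limma), where Tmem263 was not called (0.14). From 6 to 10 months, wild types of both sexes and housings gained Tacc2 (0.43 ± 0.12, adjusted p = 0.012), Insig2 (0.38 ± 0.11, adjusted p = 0.013) and Tmem263 (0.23 ± 0.07, adjusted p = 0.020; edgeR), 3 of the 10 against 15.1% of all genes (8.43% higher). With lane as a covariate none of the 3 passed (0.54, 0.05 and 0.29, adjusted p = 0.23, 0.948 and 0.267, edgeR), and 836 genes were called in place of 2443. That fit takes lanes separately at each age, so its age difference is that between a reference lane of each age. It changes with the lane taken as reference and cannot check the gain. Without the 5 libraries that stood apart, 5 of the 10 were called.

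In females housed with Q20, Insig2 rose by 1.31 ± 0.23 (adjusted p = 8.1e-05), Tacc2 by 1.22 ± 0.25 (adjusted p = 0.00093), Leo1 by 0.78 ± 0.17 (adjusted p = 0.0024) and Tmem263 by 0.47 ± 0.14 (adjusted p = 0.026; edgeR), 4 of the 10 against 7.69% of all genes. This comparison within housings was chosen after seeing the data. In females housed with Q50 none of the 10 passed (0.763% of all genes), with 0.09 ± 0.22 for Insig2 and 0.11 ± 0.18 for Leo1. The difference between the housings in this gain was not tested, and males were not fitted separately by housing. In Q20-housed wild-type males the mean went from 7.24 ± 1.34 to 9.47 ± 0.825 CPM for Tmem263 and from 22.0 ± 8.33 to 29.7 ± 13.6 CPM for Tacc2 (SD, n = 4 each). With lane as a covariate the calls of Insig2 (0.95, adjusted p = 0.117), Leo1 (0.69, 0.152) and Tmem263 (0.47, 0.186) were lost (edgeR). There too the age difference depends on the reference lane, so this is no check of the rise. The call of Tmem263 was also lost without replicate 2 or 4 of the females of 10 months (0.0501 to 0.177 with the next, edgeR). The same held without replicate 2 or 3 of those of 6 months, and without the libraries lacking an index (0.0561, edgeR). The averaged gain of Tmem263 was lost without replicate 4 of the Q20-housed females or of the Q50-housed males of 10 months (0.0519 and 0.0503, edgeR).

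Some genes of the circadian clock moved with the step. Arntl, which encodes the clock factor BMAL1, had 20.0, 6.46, 16.2 and 18.9 CPM in the 4 Q20 females of 10 months and 12.2, 8.26, 8.52 and 9.11 CPM in their wild types, against 0.627 to 4.47 CPM (median 1.62) in the other 16 females. Clock, its partner, had 32.5 to 45.2 and 31.4 to 36.6 CPM in these groups against 12.3 to 28.1 CPM in the other 16. Dbp, a target of both that peaks when Arntl is low, had 3.53, 28.9, 21.9 and 8.23 CPM in Q20 females and 34.2, 48.5, 29.6 and 22.9 CPM in their wild types, against 71.3 to 176 CPM. The groups did not overlap for any of these 3 genes. Across the females of 10 months, group means ran from 94.3 to 119 CPM for Nr1d1 and from 4.97 to 6.76 CPM for Cry1. Among males of 10 months, Q20 had the lowest mean of Arntl (4.32 CPM) and the highest of Dbp (60.6 CPM). Between the housings in wild-type males of 10 months, none of the 18 clock genes was called (median -0.10), against 1.31% of all genes. Between wild-type females of 10 months, 7 of 18 clock genes tested were called, against 0.967% of all genes: Arntl was lower with Q50 housing (-2.30 ± 0.59, adjusted p = 0.038, edgeR), and Cry2, Per3, Nr1d2, Per2 and Tef were among the 6 that were higher (0.57 to 1.85 for these 5). The number of all genes called in this comparison, 156, was 23 with lane as a covariate, 9 without the libraries lacking an index, and 12 without replicate 2 of the Q50-housed females. No label used here gives a time of day for tissue collection, and the part of the clock in the step was not tested.

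At 6 months the males of Q50 and of the wild types housed with them had 4.28 to 53.3 CPM of Dbp and 3.60 to 23.8 CPM of Arntl. The other 16 males of 6 months had 25.8 to 105 CPM of Dbp and 1.69 to 14.8 CPM of Arntl, so 7 of the 8 were below them for Dbp and the groups overlapped for Arntl. Insig2 in these Q50 males was 185 CPM in replicate 3 and 248 to 251 CPM in the others, and in the wild types 157, 225, 224 and 220.4 CPM, against 102 to 243 CPM in the other 16 males of 6 months. Replicate 1 of these wild types had the highest Dbp (53.3 CPM), the lowest Arntl (3.60 CPM) and the lowest Insig2 (157 CPM) of the 8 males. Among Q20 females of 10 months, replicate 2 had the lowest Arntl (6.46 CPM), the lowest Insig2 (144 CPM) and the lowest Leo1 (11.04 CPM). Their Q20-housed wild types did not line up in this way. There Arntl was lowest in replicate 2 (8.26 CPM) and Insig2 in replicate 3 (156 CPM). The highest Arntl was in replicate 1 (12.2 CPM) and the highest Insig2 in replicate 4 (174 CPM). The libraries named here are examples.

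**Figure D4:**
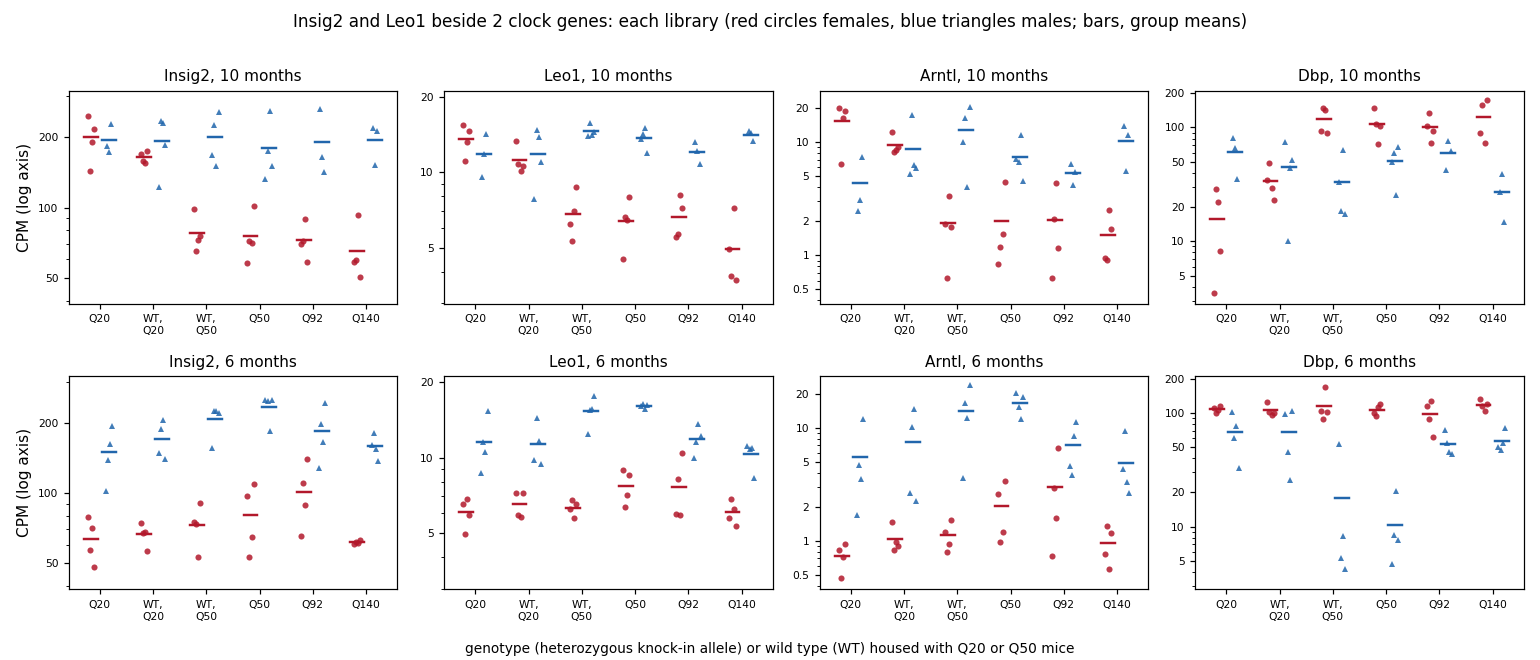
CPM (log axis) of Insig2, Leo1, Arntl and Dbp in each library at 10 months (top) and 6 months (bottom), by genotype or wild-type housing. Red circles are females, blue triangles males, and bars group means. At 10 months the females of Q20 and of Q20-housed wild types are high for Insig2, Leo1 and Arntl and low for Dbp, and at 6 months 7 of the 8 males of Q50 and of Q50-housed wild types lie below every other male for Dbp.

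Within groups, after each group's mean was taken from log2 CPM, the correlations with Clock were highest for Insig2 and Leo1. The 93 libraries share scaling and in part the inferred lane. Over them the Pearson correlation of Insig2 was 0.80 with Clock, 0.74 with Arntl, -0.67 with Per2 and -0.63 with Dbp. Leo1 had 0.77 with Clock and 0.71 with Arntl. The other 8 members ran from -0.36 (Slc25a22) to 0.49 (Atp2a2) with Clock, among them Tacc2 at 0.36, Slc17a1 at 0.29 and Creb3l2 at 0.09, and Tmem263 had 0.31 with Arntl. These correlations are descriptions across libraries.

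Among themselves the 10 genes were loosely related. Of their 45 pairs, 33 had a positive correlation within groups, with a median of 0.11 (0.15 in the 32 wild-type libraries alone), against a median of 0.01 between the members and 12088 genes with at least 1 CPM. The highest were Insig2 with Leo1 (0.69), Slc17a1 with Lhx6 (0.57), Atp2a2 with Leo1 (0.56) and Atp2a2 with Slc17a1 (0.51). Slc25a22 was lowest, with -0.33 for Leo1 and -0.28 for Insig2, although all 3 were raised in the same groups of females. The genes that most resembled each member were Clock, Arntl and Ppp2r1b for Insig2 (0.73 to 0.80), Caprin1, Clock and Selenoi for Leo1 (0.73 to 0.79), and Edem3, Sel1l and Ubfd1 for Atp2a2 (0.77 to 0.79), of which Edem3 and Sel1l act in the breakdown of misfolded ER proteins. For Creb3l2 they were Golph3l (0.69), the ER stress kinase gene Eif2ak3 (0.66) and Tmem39a (0.55). For Slc17a1 they were Atp6ap2, the neighbouring family member Slc17a2 and Cebpg (0.66 to 0.67), for Lhx6 Pllp, Slc35e3 and Tpd52 (0.64 to 0.66), and for Tacc2 Lrrfip1, Nedd4l and Tmem131 (0.65 to 0.67). Slc25a22 (Cyp4f15, Foxa3, Pofut2), Tmem263 (Eif1a, Zfp280c, Tspyl2) and Car14 (Pcca, Mipep, Cryl1) had no partner above 0.64.

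**Figure D5:**
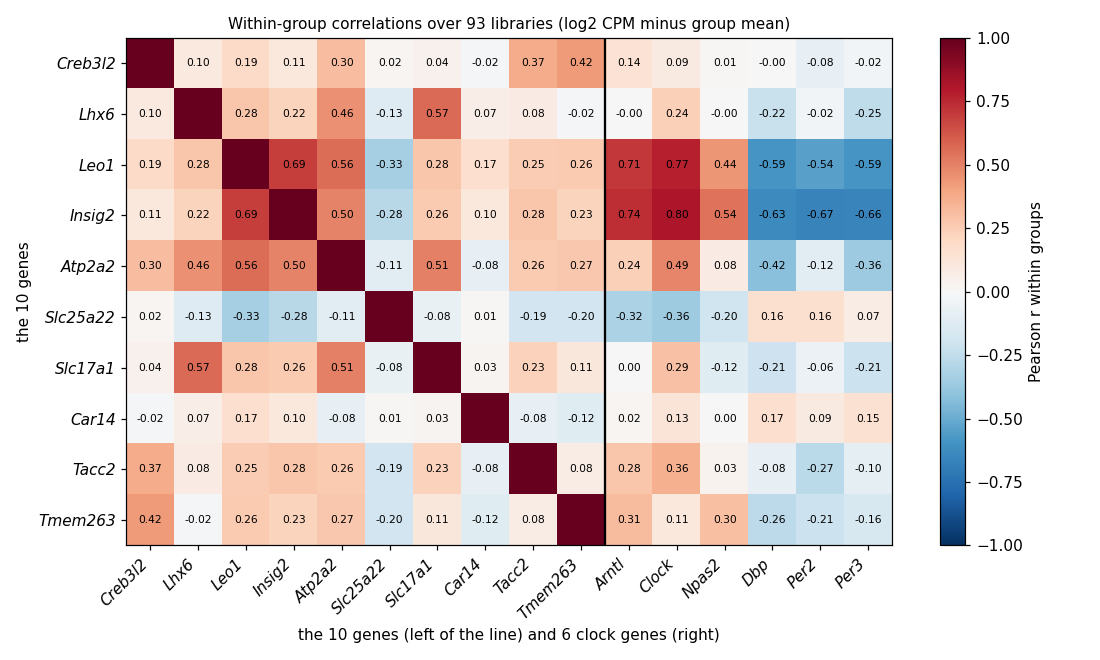
Pearson correlation within groups (log2 CPM minus group mean, 93 libraries) between the 10 genes, and between them and 6 clock genes to the right of the line. Insig2 and Leo1 reach 0.80 and 0.77 with Clock, and the 45 pairs of members have a median of 0.11.

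Pathways around the 10 genes were read as 14 lists of related genes. Along CAG length at 10 months no list had a gene other than a member past the threshold (0.329% of all genes passed). At 6 months none had any (0.0248% of all genes). At these shares lists of this size would hold few calls, so nothing is read from their absence. The calls of the members themselves follow from the choice. The lists were drawn up from textbook roles with earlier results known. In the list of INSIG, SCAP and SREBP with sterol targets, Insig2 was the 1 gene of 23 called lower, and 19 of 23 changes were above 0 (median 0.11, against 0.00 over all genes). Srebf1, which encodes the SREBP-1 factor, had 0.66 ± 0.17 (adjusted p = 0.061, edgeR). In Q92 against Q20 mice of 10 months, 5 of the 23 were higher and 1 lower, against 2.60% of all genes called. Srebf1 (0.86 ± 0.19), Fdps (0.89 ± 0.22) and Lss (0.89 ± 0.24), the last 2 encoding enzymes of cholesterol synthesis, were among the higher, and Insig2 was the lower. Between wild-type females of 10 months, Srebf1 (0.91 ± 0.25, adjusted p = 0.048, edgeR) was higher with Q50 housing, where Insig2 was lower. In these females 5 of the 23 differences were below 0 (median 0.28). Between wild-type males, where Insig2 was not called, 0 of the 23 were below 0 (median 0.60). Of these 23 genes 2 were called higher in males, against 1.31% of all genes called. Whether Insig2 had a part in these levels was not tested. Lss and these values of Srebf1 and Fdps were named after they were seen.

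In the other lists the calls along CAG length were those of members. These calls follow from the choice of the genes, so they do not show that a member stands out in its list. For the list of the ER-bound CREB3 family and unfolded protein response, Creb3l2 was the 1 of 20 called along CAG length, and Dnajb9 (-0.54 ± 0.18) and Eif2ak3 (-0.40 ± 0.14) came next without passing (adjusted p = 0.17 and 0.20, edgeR). In the COPII coat, which carries proteins out of the ER, 13 of 15 changes were below 0 and none passed, Sec24d being nearest (-0.51 ± 0.14, adjusted p = 0.086, edgeR). Leo1 was the 1 of 16 genes of the PAF1 complex and elongation factors that passed, beside Supt5 (-0.13 ± 0.07) and Cdc73 (-0.13 ± 0.07), and Atp2a2 the 1 of 16 for calcium pumps and channels. Car14 was the 1 of 12 carbonic anhydrases, Slc25a22 the 1 of 15 mitochondrial glutamate genes, and Slc17a1 the 1 of 11 in its transporter family and 1 of 12 among urate and organic anion transporters. Slc17a4, its relative, had -0.48 ± 0.14 along CAG length (adjusted p = 0.12, edgeR). It was called lower in both Q92 (-0.61 ± 0.15) and Q140 mice (-0.60 ± 0.15) against Q20, and Slc17a2 in Q92 mice (-0.51 ± 0.14), both named after their values were seen. None of 10 TACC and spindle genes or of 4 LIM homeobox genes and cofactors passed along CAG length. All 13 periportal hepatocyte genes had a change below 0 (median -0.18, against -0.0015 over all genes). None passed, with Cyp2f2 nearest (-0.36 ± 0.13, adjusted p = 0.26, edgeR), while 7 of 12 pericentral genes were below 0. Between wild-type females of 10 months, Q50 minus Q20 housing, 0 of the 13 periportal genes were below 0 (median 0.14). Along CAG length at 6 months 5 of the 13 were below 0 (median 0.11). None of the 18 clock genes passed along CAG length. In Q92 against Q20 mice of 10 months 5 of the 18 were called, against 2.60% of all genes: Dbp (1.33 ± 0.38), Per3 (1.31 ± 0.32) and Cry2 (0.43 ± 0.12) were higher, and Nfil3 (-0.89 ± 0.24) and Clock (-0.61 ± 0.18) lower.

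Markers of other cell types were also read in the females of 10 months. The 5 Kupffer markers summed to 238 to 354 CPM in Q20 females and to 173 to 415 CPM in the other 20, the 5 endothelial markers to 193 to 257 and to 111 to 246 CPM, and the 6 stellate and matrix markers to 134 to 150.1 and to 108 to 234.5 CPM. The 6 lymphocyte markers summed to 10.5 to 18.2 CPM in Q20 and to 8.30 to 212.7 CPM in the other females, and the 5 cholangiocyte markers to 47.5 to 54.1 and to 36.6 to 110.1 CPM. The 6 hepatocyte markers overlapped throughout, at 103326 to 119496 CPM in Q20 and 94302 to 121326 CPM in the other females. The Q20 values lay within the range of the other groups for each of these 6 lists except the upper end of the endothelial sum. Against Q92 females alone, Q20 females did not overlap for 3 of the lists: the Q92 sums were 20.2 to 149.7 CPM for lymphocyte, 162 to 205 CPM for stellate and matrix and 65.5 to 86.2 CPM for cholangiocyte markers, each above the Q20 range. The lymphocyte sum of Q140 females had a median of 43.7 CPM, against 11.35 CPM in Q20 females. The part of cell makeup in the levels of the 10 genes was not tested.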

How the data were processed

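Liver RNA of 93 libraries was sequenced after miRNeasy extraction and Illumina library preparation, per the labels' protocols. The authors deposited a table of expected counts and a table of FPKM values. Of the nonzero expected counts as deposited, 26.0% were not whole (tolerance 0.001). CASAVA 1.8.2 is named in the submitters' processing notes, and the aligner, counter, strand setting and genome build are not given in the sources used here. Ensembl gene IDs were matched to GENCODE vM21 (GRCm38) for names and positions.

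The expected counts were rounded and filtered with filterByExpr (minimum count 10, minimum total 15), which left 16126 of 39179 genes. Group means of the 24 groups were fitted with edgeR 4.0.16 (TMM, robust quasi-likelihood) in R 4.3.3, and tests adjusted over all 16126 genes. The trend is a line on CAG length, given for 20 to 140. FPKM values were tested as log2(FPKM + 0.1), and log2(FPKM + 1), with limma 3.58.1. DESeq2 1.42.0 was an alternative. The fits were tested on simulated counts. Leaving out a library kept the genes and trended dispersions of the full fit and estimated TMM factors and quasi-likelihood dispersions anew. The number of libraries per group and their totals (28752184 to 46776898 counts) limit the precision.

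The genes, their lists and the comparisons by sex were chosen with earlier results of these data known. All 10 genes are named, together with Htt, up to 3 genes of each list with the smallest p in a trend, and the 3 genes of each member with the highest correlation within groups and a mean of at least 1 CPM. Clock, sterol and transporter genes beyond these were named after their values were seen. Some genes that the naming rule or the lists would include are not reported here.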

Additional observations from a re-analysis of the deposited data

Results flagged for a closer look

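In 12 of 210 combinations of a gene and a group of 4 libraries, the highest or lowest library stood apart from the other 3 by Dixon's criterion, which chance alone meets in about 1 of 20 groups. Among males of 6 months, Car14 was 36.82 CPM and Leo1 8.308 CPM in replicate 4 of Q140, below 45.7 to 46.28 CPM and 10.85 to 11.14 CPM in the others. That library is the one with brain transcripts. Insig2 was low at 184.8 CPM in replicate 3 of Q50 males (others 248.2 to 251 CPM) and at 156.6 CPM in replicate 1 of the males that were wild type and shared Q50 housing (others 220.4 to 225.4 CPM). That replicate also had the high Tacc2 of 38.35 CPM (others 15.95 to 19.2 CPM), and among Q20-housed wild types the third male had 34.36 CPM of Tacc2 (others 16.3 to 19.15 CPM).

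Among females of 6 months, Creb3l2 was high at 36.29 CPM in replicate 1 of the wild types housed with Q50 (others 20.03 to 20.84 CPM). Tacc2 was high at 23.75 CPM in replicate 2 of Q140 (others 14.84 to 15.98 CPM), and Tmem263 low at 6.026 CPM in replicate 3 of Q50 (others 7.137 to 7.365 CPM). At 10 months, Car14 was high at 33.87 CPM in replicate 4 of Q50 females (others 22.73 to 23.75 CPM). Tmem263 was high at 7.001 CPM in replicate 3 of Q140 females (others 5.969 to 5.978 CPM), and Slc17a1 at 15.5 CPM in the first Q50-housed wild-type male (others 11.01 to 11.62 CPM).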

How the results depend on the processing

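Of the recomputed values for single genes, 43 lost and 18 gained a call. Without the libraries lacking an index the sex difference of Slc17a1 in wild types became 0.02133 against -0.06, and the male trend of Atp2a2 at 10 months 0.01 against -0.15. The male trend of Insig2, 0.03, was -0.04 with lane as a covariate and ran from -0.06 to 0.17 when 1 library was left out. Counts of the 10 genes called depended more on the setting. With lane as a covariate the trend at 10 months called 0 in place of 8, Q140 against Q20 0 (in place of 10), Q92 against Q20 5 (in place of 8), the trend in females 6 (in place of 10), Q140 against wild types at 6 months 0 (in place of 1), the wild-type age comparison 0 (in place of 3), that in Q20-housed females 1 (in place of 4), and the wild-type housings at 10 months 0 with sexes averaged (in place of 1) and 1 in females (in place of 3). Without the libraries lacking an index the same comparisons gave 0 for the trend, 0 for Q140, 1 for Q92, 2 for the female trend and 0 for both housing comparisons. On log2(FPKM + 0.1) the trend called 1 and Q140 against Q20 5. Without a filter on FPKM the trend called 1, Q140 against Q20 2, Q92 against Q20 5 and Q140 against wild types 0. On log2(FPKM + 1) the trend called 3, Q140 against Q20 4 and the difference of housing between the sexes 1. With no filter on low counts the trend called 2. DESeq2 called 3 for housing with sexes averaged, 5 in females and 1 for their difference. Without the 5 libraries that stood apart the age comparison called 5, housing 2 and housing in females 5. Leaving out 1 library gave 0 to 9 for the trend, 8 to 10 in females, 2 to 10 for Q140 and 2 to 8 for Q92 against Q20, 0 to 2 for Q140 against wild types at 6 months, 0 to 1 for Q20 against wild types, 2 to 5 for age, 3 to 5 for age in Q20-housed females, 0 to 2 for housing, 0 to 3 in females, 0 to 1 for the difference of the sexes and 7 to 8 for sex. For age, the fit with lane as a covariate depends on the reference lane. Its age counts, for the 10 genes and over all genes, are therefore no check of age. The cause of these changes was not tested.

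Over all genes, lane as a covariate called 2 in place of 53 for the trend at 10 months, 200 in place of 697 in females, 11 in place of 395 for Q140 against wild types at 6 months, 836 in place of 2443 for age, 490 in place of 1240 for age in Q20-housed females, 17 in place of 307 for housing and 23 in place of 156 in females. DESeq2 called 104 for the trend, 657 for Q140 against wild types, 473 for housing, and 52 in place of 4 for the trend at 6 months. Without the 5 libraries that stood apart these became 117, 599, 193 and 30, with 260 for housing in females, and without the libraries lacking an index 0, 901, 99 and 0, with 9 for housing in females and 236 for the female trend. With no filter on low counts they were 19, 213, 171 and 0, with 70 for housing in females. On log2(FPKM + 0.1) housing in females called 97, and without a filter on FPKM Q140 against wild types called 216 and housing 200. For Q140 against Q20 at 6 months, 9 genes became 84 with DESeq2, 37 without the libraries that stood apart and 17 without those lacking an index, and 1 with no filter on low counts. Leaving out 1 library gave 0 to 80 genes for the trend at 10 months, 358 to 1112 in females, 8 to 96 for Q140 and 82 to 511 for Q92 against Q20, 0 to 104 for the trend at 6 months and 0 to 125 for Q140 against Q20 at 6 months (104 and 125 without replicate 4 of the Q20 females). It gave 101 (without replicate 2 of the Q140 males) to 660 for Q140 against wild types at 6 months, 1772 to 2828 for age, 592 to 1401 for age in Q20-housed females, 134 to 569 for housing, 12 to 163 in females, 0 to 21 for the difference of the sexes and 6749 to 7577 for sex. None of the 10 genes was called along CAG length or against Q20 at 6 months under any of these settings. Same-numbered libraries of different groups had a mean correlation of 0.0066 and others -0.0018, so the numbers were not taken to pair samples. With the replicate number as a block, 7 of the 10 genes were called for the trend at 10 months, 8 for Q140 and 7 for Q92 against Q20, 4 for housing in females (Slc25a22 gained, -0.62, adjusted p = 0.0478, edgeR) and 5 for age in Q20-housed females. Depth limits Lhx6 most, at 23 to 240 counts per library.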
